A study of Rattus norvegicus with 63 samples.

Results

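The miR-26 and miR-101 families were followed through rat livers exposed to 15 compounds. Members were set by name, with no measured value in the rule: rno-miR-26a, rno-miR-26b, rno-miR-101a and rno-miR-101b (written below without rno) are 4 of the 350 rat miRNAs on the array and 4 of the 162 that were detected on at least 1 array and tested. All 4 were detected and well above background on each of the 63 arrays, and no spot was saturated. The opposite arms miR-26b* and miR-101a* were detected on 0 arrays. The livers came from male Wistar Hanover rats, 8 to 10 weeks old, that received a compound or its vehicle by gastric gavage. Their miRNAs were measured in order to separate nongenotoxic from genotoxic carcinogens and non-carcinogens after short exposure. Each of the 21 groups held 3 rats, with 1 array per rat.

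Rats given methylcellulose (MC) for 14 days formed control sets 1, 2, 5 and 6, and rats given corn oil (CO) formed control sets 3 (7 days) and 4 (14 days). Against MC set 1 stood acetamide (AA, 3000 mg/kg per day for 14 days), dehydroepiandrosterone (DHEA, 600 mg/kg, 14 days), methylcarbamate (Mcarb, 400 mg/kg, 14 days), methapyrilene HCl (MPy, 60 mg/kg, 7 days), thioacetamid (TAA, 19.2 mg/kg, 7 days) and Wy-14643 (Wy, 60 mg/kg, 3 days). MC set 2 served cefuroxime (CFX, 250 mg/kg) and nifedipine (Nif, 3 mg/kg), both for 14 days. CO set 3 served C.I Direct Black (CIDB, 146 mg/kg) and dimethylnitrosamine (DMN, 4 mg/kg), both for 7 days, and CO set 4 served cyproterone acetate (CPA, 100 mg/kg, 14 days). MC set 5 served diethylstilbestrol (DES, 10 mg/kg, 3 days), ethionine (ETH, 200 mg/kg, 14 days) and piperonylbutoxide (PBO, 1200 mg/kg, 3 days). MC set 6 served phenobarbital sodium (PB) for 14 days, with no dose in the labels. By these labels DES, PBO, Wy, MPy and TAA were given for a shorter time than their vehicle, although the methods describe controls matched in time. Compounds that share a control set share its chance deviations.

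A miRNA guides a silencing complex to messenger RNAs that pair with its seed, a short stretch near its 5′ end, and lowers their translation and stability. miR-26a is known to repress cyclins that drive entry into the cell cycle, and its level is low in many human liver cancers. miR-101 is known to repress EZH2, the enzyme that writes the repressive methyl mark on histone H3 lysine 27, and the survival protein MCL1, and it too is often low in liver cancer. Members of one family share their seed and, with it, many of their targets.

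The mature sequences are shown because the seed (bases 2 to 8, in capitals) defines each family and because the few other differences set how well 2 array features can be told apart. They are taken from RefSeq (build GRCr8) and run 5′ to 3′:
miR-26a: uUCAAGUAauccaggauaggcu
miR-26b: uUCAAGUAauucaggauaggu
miR-101a: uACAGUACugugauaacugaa
miR-101b: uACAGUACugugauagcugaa

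Counted from 1 at the 5′ end, miR-26b differs from miR-26a by C11U and C21U over 21 shared positions, and is 1 base shorter (21 against 22). miR-101b differs from miR-101a by A16G alone, with 20 of 21 bases the same. Among 724 mature rat miRNAs in the RefSeq table, each seed was found in 2, the 2 members of its family. The 4 genes lie on 4 chromosomes. miR-26a is encoded at chr8:127633063-127633084 (plus strand) within the span of Ctdspl, and miR-26b at chr9:83425723-83425743 (plus strand) within the span of Ctdsp1, a phosphatase gene related to Ctdspl. miR-101a lies at chr5:121081691-121081711 (minus strand) within LOC120102934, and miR-101b at chr1:236273982-236274002 (plus strand) within Rcl1. The table of gene spans used here gives no exons or strands, so exonic or intronic position was not determined.

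Array facts bear on all values below. The arrays lay on 9 slides scanned on 3 days, and the third day, when a single slide was read, gave the dimmest arrays (median brightness of 75 to 78 units, compared with 140 to 243.5 on the other days). The columns of 15 of the 63 samples in the authors' value table follow the scanner file of another sample (DES and DHEA exchanged, and MC sets 1, 2 and 5 moved round), with r from 0.86 to 0.976 against the array followed and from -0.05 to 0.66 against their own. Values are therefore given with arrays as labelled, and again with arrays assigned as in the value table. This touches every comparison except those of PB, CIDB, DMN and CPA. Liver origin was plain from miR-122, the defining hepatocyte miRNA, with log2 values of 14.21 to 14.70 in all rats. In whole liver, fewer cells of a type and less miRNA per cell cannot be told apart.

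As processed here the 4 miRNAs moved little, and where they passed the test they were lower. Under some other processing of all arrays members also passed upwards, in CIDB alone. For example, miR-101b was 0.39 in the authors' value table (adjusted p = 0.041, limma) and 0.76 on processed signal scaled over detected miRNAs (adjusted p = 4.35e-05), where the median of all tested miRNAs was 0.31. On that scaling miR-101a (0.53, adjusted p = 0.00028, limma) and miR-26b (0.29, adjusted p = 0.0141) passed as well. Of 60 fold changes (4 members in 15 compounds), 10 passed an adjusted p of 0.05 (limma, Benjamini-Hochberg over 162 miRNAs in each comparison), all 10 downwards. That is 16.7%, against 14.3% of all tested miRNAs over the same comparisons, so members were called about as often as miRNAs in general. Of all tested miRNAs 6.71% were called lower, and the number of members called lower was 10 of 60. The median log2 fold change of the members was -0.08, beside -0.00 for all tested miRNAs, and 44 of the 60 values were negative. The largest decrease as processed here, without background correction, was 26.5% in brightness. The size depended on the processing. Over 13 other settings miR-101b in Wy ran from -1.04 to -0.26 on the log2 scale. Over the same settings miR-101a ran from -0.77 to -0.06 in Wy and from -0.73 to -0.10 in MPy. In the 4 compounds untouched by the array assignment, 2 of 16 values were called, both lower, where 4.94% of all tested miRNAs were called lower. With arrays assigned as in the value table, 12 of 60 were called lower, where 5.35% of all tested miRNAs were.

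**Figure D1:**
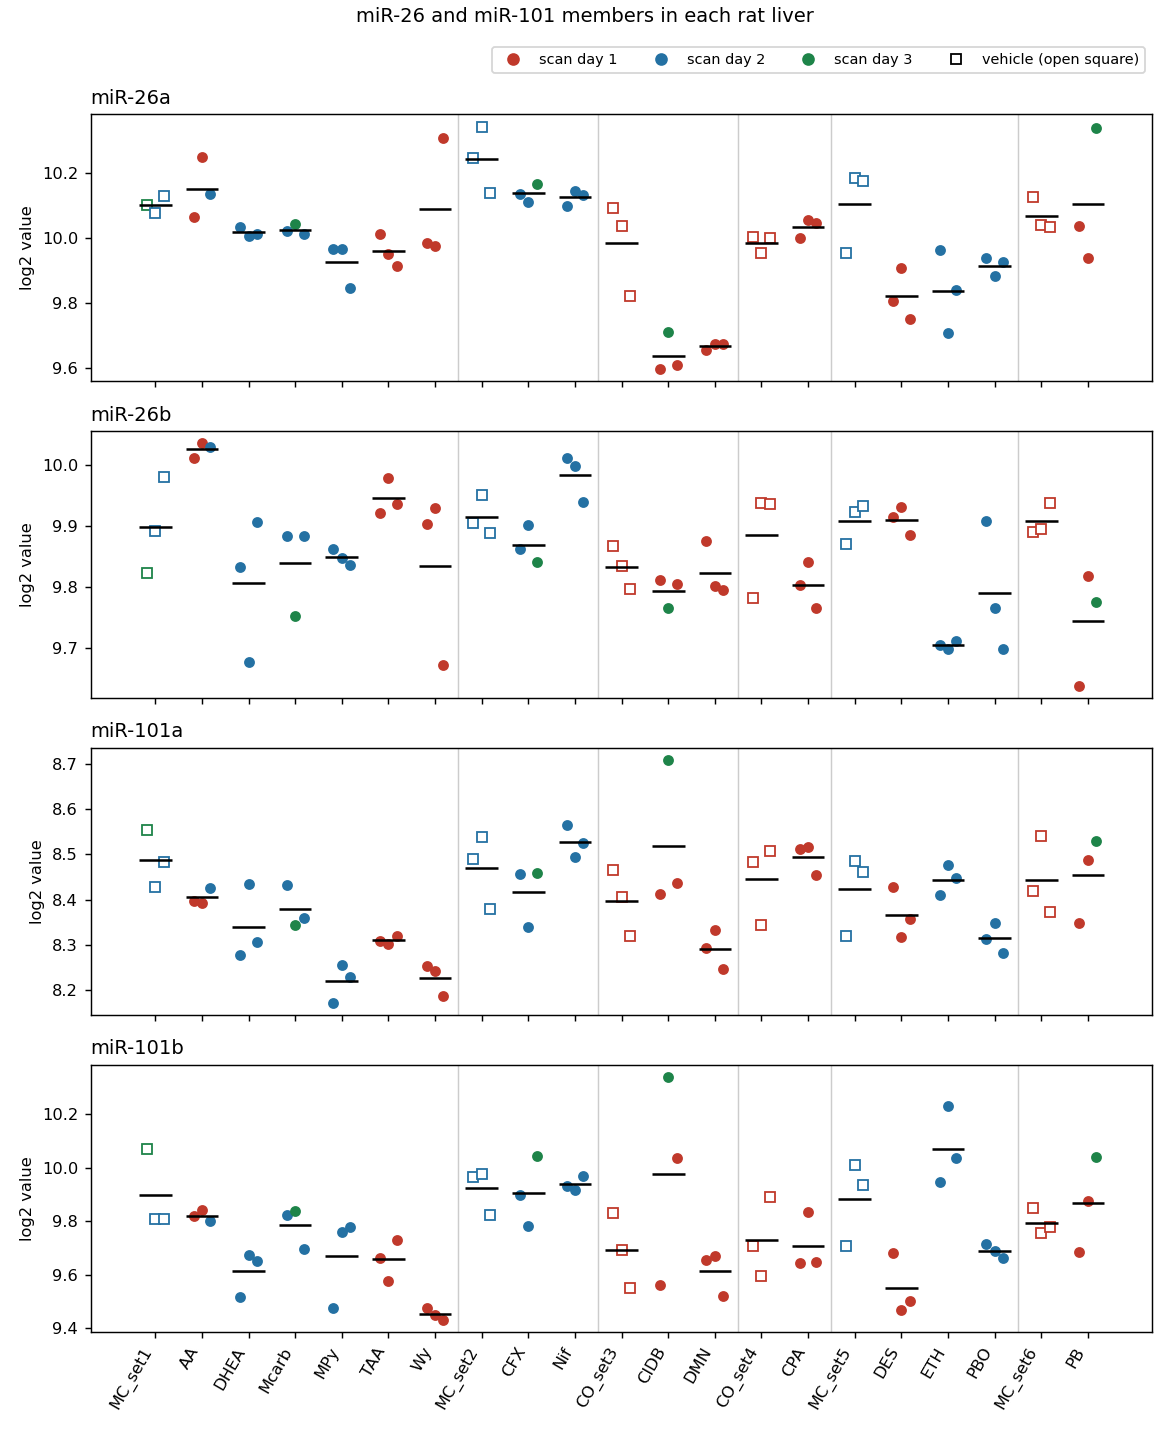
Log2 normalised brightness (y axis) of each member in every rat, by group (x axis), each control set (open squares) followed by the compounds compared with it (filled circles); black bars are means of 3 rats and colours give the scan day. miR-26a is lowest in CIDB and DMN (means 9.64 and 9.67), and miR-101b is lowest in Wy (9.45).

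All rats of the compound lay below all their controls in 19 of the 60 comparisons and above them in 1, while 40 overlapped. Among all tested miRNAs, 29.5% of comparisons did not overlap and 15.4% had the treated rats below. The ranges of group means were 0.61 log2 units for miR-26a, 0.32 for miR-26b, 0.31 for miR-101a and 0.62 for miR-101b, with pooled SDs within groups of 0.09, 0.06, 0.07 and 0.14. When the 21 groups were put in order of their means, the gap between neighbours was below that SD for 20 of 20 neighbours in miR-26b, miR-101a and miR-101b. In miR-26a it was below for 19 of 20, the exception being the gap of 0.15 between DMN and DES. These orders thus do not tell neighbours apart. DMN and DES, which differ in vehicle and slide, were not tested against each other.

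miR-26a, the cyclin repressor, had the most calls, in CIDB, DMN, DES and ETH. In CIDB the 3 rats had log2 values of 9.60, 9.61 and 9.71, and the CO set 3 rats had 9.82, 10.04 and 10.09. In DMN the rats lay closer together, at 9.66, 9.67 and 9.67, against the same controls. Both compounds thus had every rat below every control. miR-26a fell by 0.35 on the log2 scale in CIDB (SE 0.07, adjusted p = 0.000368, limma), and its brightness fell by 21.3%. In DMN it fell by 0.32 (SE 0.07, adjusted p = 0.00116, limma). It was the member called in each of these, 1 of 4, where 20.4% of all tested miRNAs were called in CIDB and 23.5% in DMN.

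In DES, a synthetic oestrogen, miR-26a was 9.75, 9.81 and 9.91, and in the MC set 5 controls it was 9.95, 10.17 and 10.19. The groups did not overlap, with a fall of 0.28 (SE 0.07, adjusted p = 0.00292, limma). In ETH, an antimetabolite of methionine, values of 9.71, 9.84 and 9.96 overlapped those of the same controls by 1 rat, and the log2 fold change was -0.27 (SE 0.07, adjusted p = 0.00861, limma). The ETH call was lost in 3 of 6 fits that left out 1 rat: without ETH replicate 2 the value was -0.20 (adjusted p = 0.109, limma), and without MC set 5 replicate 8 or 9 it was -0.23 in both cases (adjusted p = 0.0693 and 0.0692, limma). Members called were 2 of 4 in DES, where 37% of all tested miRNAs were called, and 2 of 4 in ETH, where 16% were. PBO, the third compound of that control set, had values of 9.88 to 9.94 and a log2 fold change of -0.19 (adjusted p = 0.0961, limma). Without MC set 5 replicate 7 the PBO value was -0.27 (adjusted p = 0.0266, limma).

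The 2 probes of miR-26a differed in how far they moved. In CIDB the change was -0.20 by one probe and -0.49 by the other, in DMN it was -0.18 and -0.45, and in DES it was -0.17 and -0.40. In ETH the probes lay closer, at -0.23 and -0.30. All 10 called values of the 4 members had both probes in the same direction, while in 10 of the 60 comparisons the probes had opposite signs. The sequences of the probes were not used here.

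miR-26b, which shares the seed and all but a few bases, was called in ETH alone. Its ETH values of 9.70, 9.71 and 9.71 lay below all MC set 5 rats, at 9.87, 9.92 and 9.93. It fell by 0.20 there (SE 0.05, adjusted p = 0.00382, limma), and the call held in all 6 fits that left out 1 rat, with values from -0.22 to -0.19. In CIDB, DMN and DES, where miR-26a was lower, the miR-26b values were -0.04, -0.01 and 0.00, each with a 95% interval of ±0.10. The largest positive value was in AA, at 0.13 (adjusted p = 0.0951, limma), where 10.01, 10.03 and 10.03 lay above all controls at 9.82, 9.89 and 9.98. Without MC set 1 replicate 6 this value was 0.17 (adjusted p = 0.0411, limma). PB gave -0.16 (adjusted p = 0.0753, limma), and -0.20 without PB replicate 2 (adjusted p = 0.0283, limma). PBO gave -0.12, and -0.18 without PBO replicate 1 (adjusted p = 0.0258, limma).

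miR-101a, one of the 2 EZH2-directed members, was called in MPy, Wy and TAA, all compared with MC set 1. In MPy, an antihistamine that causes liver tumours in rats, it was 8.17, 8.23 and 8.26. In Wy, an agonist of the peroxisome proliferator receptor PPAR alpha, it was 8.19, 8.24 and 8.25. In TAA, a hepatotoxin, it was 8.30, 8.31 and 8.32. The shared controls were at 8.43, 8.48 and 8.55, above the 9 treated rats. miR-101a fell by 0.27 in MPy (SE 0.06, adjusted p = 0.000348, limma), by 0.26 in Wy (adjusted p = 0.000572) and by 0.18 in TAA (adjusted p = 0.0194). Without 1 rat the TAA value missed the threshold in 3 of 6 fits: -0.15 without MC set 1 replicate 4 (adjusted p = 0.112, limma), -0.18 without TAA replicate 1 (adjusted p = 0.0685) and -0.17 without TAA replicate 2 (adjusted p = 0.0557). MPy and Wy kept the call in all 6. Members called were 1 of 4 in MPy, 2 of 4 in Wy and 1 of 4 in TAA, where 18.5%, 25.9% and 21.6% of all tested miRNAs were called.

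miR-101a was the dimmest of the 4 in relation to its background. Only 45.0% and 48.9% of the median brightness of its 2 probes was left after the scanner software subtracted background, compared with 72.5% to 88.1% for the 6 probes of the other members. The values given here carry no background correction, so they understate relative changes, and more so for miR-101a. In the authors' value table, miR-101a had fold changes of -0.47 in MPy, -0.42 in Wy and -0.22 in TAA, with TAA no longer called (adjusted p = 0.255, limma). By the methods that table also carries no background correction, and its MC set 1 columns follow the arrays labelled MC set 5. These values therefore do not show what background correction would change. DHEA, against the same controls, was at -0.15 (adjusted p = 0.0541, limma) and passed without DHEA replicate 2 (-0.20, adjusted p = 0.024) or MC set 1 replicate 5 (-0.18, adjusted p = 0.0396).

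miR-101b was called in Wy and DES. Wy gave 9.43, 9.45 and 9.48, the lowest group of the series for this miRNA, against 9.81, 9.81 and 10.07 in MC set 1. It fell by 0.44 (SE 0.11, adjusted p = 0.00279, limma), or 26.5% in brightness, the largest among the 60 values, and it passed in all 6 fits without 1 rat. Wy was the compound in which both miR-101 members passed. DES rats had 9.47, 9.50 and 9.68, against 9.71, 9.94 and 10.01, with a fall of 0.33 (SE 0.11, adjusted p = 0.0172, limma). That call was lost without DES replicate 2 (-0.29, adjusted p = 0.0722), DES replicate 3 (-0.31, adjusted p = 0.0681), MC set 5 replicate 8 (-0.27, adjusted p = 0.105) or MC set 5 replicate 9 (-0.31, adjusted p = 0.064).

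CIDB rats were the most uneven for the miR-101 family. Their miR-101b values were 9.56, 10.04 and 10.34, which overlap the CO set 3 values of 9.55, 9.69 and 9.83. The log2 fold change was 0.29 (SE 0.11, adjusted p = 0.0623, limma), the largest positive value of the 60. It was 0.50 without CIDB replicate 1 (adjusted p = 0.000326, limma) and 0.36 without CO set 3 replicate 4 (adjusted p = 0.0391). The highest of the 3 rats, CIDB replicate 2, was the one read on the dim slide of scan day 3, and the 2 rats scanned with their controls on day 1 gave a difference of 0.11. The 1 CIDB rat on the slide of its controls, replicate 3, was 0.34 above them, which is also the value with slide as a fixed block. Against all CO rats the rise was 0.27 (adjusted p = 0.0315, limma). CIDB replicate 2 also had the highest miR-101a value of the series, 8.71. Without CIDB replicate 1 the miR-101a change of 0.12 became 0.18 (adjusted p = 0.0383, limma). For miR-26a, the 2 day 1 rats gave -0.38, no smaller than the value with all 3.

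**Figure D2:**
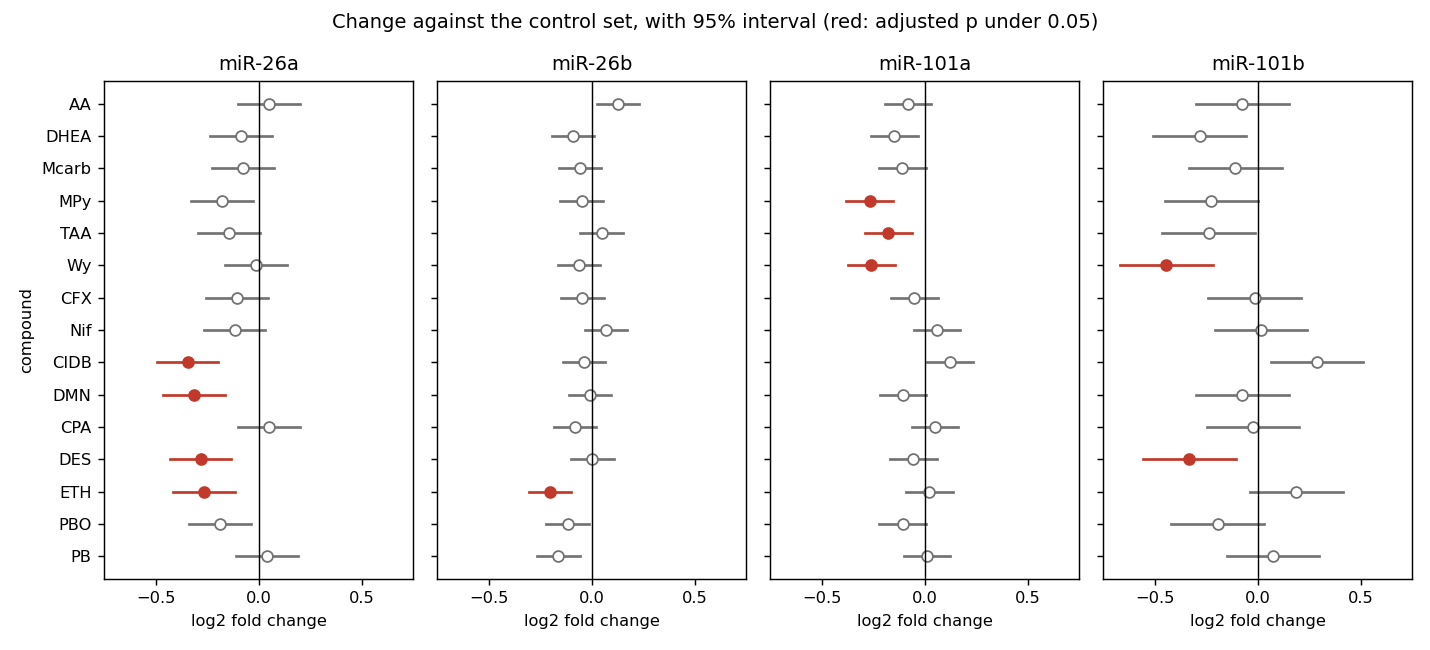
Log2 fold change of each member (x axis) in each compound (y axis) against its control set of 3 rats, with bars for the 95% interval from limma; filled red points passed an adjusted p of 0.05. The 10 red points all lie left of 0, with 4 in miR-26a, 1 in miR-26b, 3 in miR-101a and 2 in miR-101b.

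No member was called in AA, DHEA, Mcarb, CFX, Nif, CPA, PBO or PB. The shares of all tested miRNAs called in these were 13.6% in AA, 18.5% in DHEA, 1.85% in Mcarb, 0% in CFX and Nif, 5.56% in CPA, 8.64% in PBO and 3.09% in PB. The intervals there reached at most 0.15 log2 units either side of the value for miR-26a and 0.10 for miR-26b. For miR-101a they reached 0.11, and for miR-101b 0.22. These widths are not limits of detection with 3 rats, since larger values also failed to pass. Examples are miR-101b in DHEA (-0.28, adjusted p = 0.0668, limma) and miR-26b in PB (-0.16, adjusted p = 0.0753). In CPA, the values ran from -0.08 (miR-26b) to 0.05 (miR-26a and miR-101a). At an unadjusted p of 0.05, 21 of the 60 values passed, as did 26% of all tested miRNAs over the same comparisons.

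Whether the 2 members of a family moved unequally was tested directly, on the difference of log2 values within each array, beside 52 pairs of miRNAs with the same seed. miR-26a fell further than miR-26b by 0.31 in CIDB (SE 0.09, adjusted p = 0.012, limma over the 52 pairs), by 0.31 in DMN (adjusted p = 0.00742) and by 0.28 in DES (adjusted p = 0.015). In ETH, where both members were called, the difference was -0.06 (adjusted p = 0.775, limma). miR-101b fell further than miR-101a in DES, by a difference of 0.28 (SE 0.08, adjusted p = 0.00433, limma), and in Wy, by 0.18 (adjusted p = 0.0495). In these 5 comparisons the exact permutation p over rats was 0.1 (two-sided), the smallest that 3 against 3 allows. The differences are of uncorrected brightness, of which background is a larger part for miR-101a than for miR-101b. With normexp background correction the miR-101 difference was 0.29 in DES (adjusted p = 0.00501, limma) and 0.14 in Wy (adjusted p = 0.17). On processed signal scaled over detected miRNAs it was 0.14 in DES (adjusted p = 0.268, limma) and 0.27 in Wy (adjusted p = 0.0159). Over the 15 compounds 25% of same-seed differences were called, so that 3 of 15 for miR-26 and 2 of 15 for miR-101 were no more than for other pairs. With arrays assigned as in the value table, CIDB and DMN were as before, the calls in DES passed to DHEA (-0.28 for miR-26 and 0.28 for miR-101), and Wy gave 0.24 (adjusted p = 0.0173, limma).

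**Figure D3:**
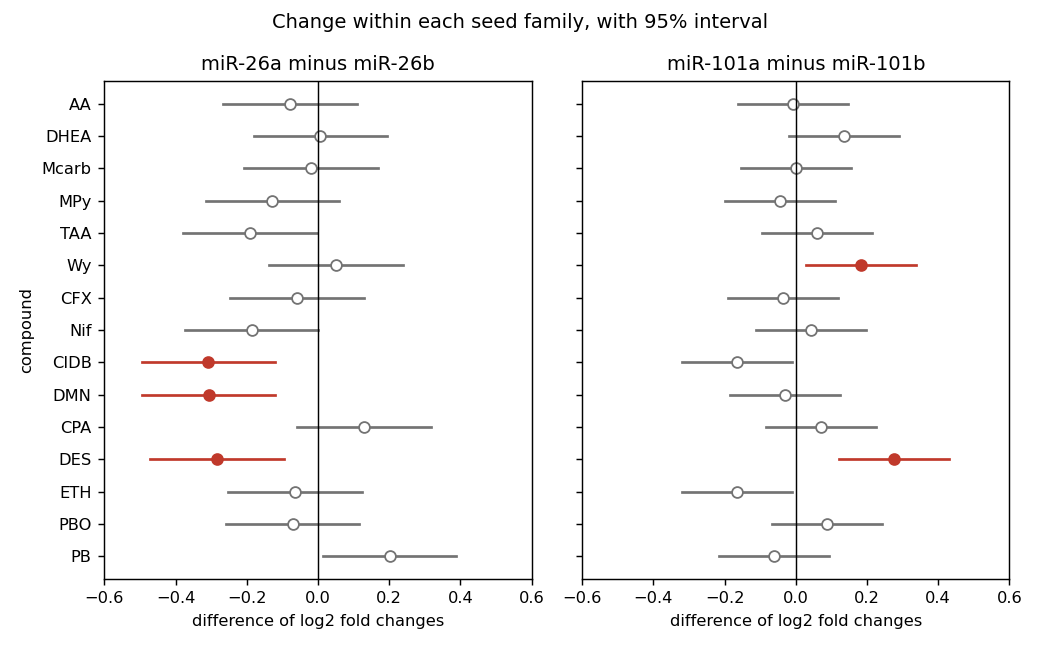
Difference of log2 fold changes (x axis) between the 2 members of each seed family in each compound (y axis), with 95% intervals from limma; filled red points passed an adjusted p of 0.05. miR-26a minus miR-26b is about -0.3 in CIDB, DMN and DES, and miR-101a minus miR-101b is 0.28 in DES and 0.18 in Wy.

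The array assignment changed which compounds were called. CIDB, DMN, PB and CPA use the same arrays either way, and so does their call of miR-26a in CIDB and DMN. The comparison given above for DES reappears whole under DHEA, since both its treated and its control arrays move there: -0.28 for miR-26a (adjusted p = 0.00292, limma) and -0.33 for miR-101b (adjusted p = 0.0172). DES is then made of other arrays, those labelled DHEA and MC set 2, and was called for miR-26a (-0.23, adjusted p = 0.0297, limma) and miR-101b (-0.31, adjusted p = 0.0477).

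In ETH, MPy, Wy, TAA and PBO the treated arrays stay and the controls change. miR-26a in ETH was -0.41 (adjusted p = 8.29e-05, limma) and in PBO -0.33 (adjusted p = 0.00149), and miR-26b in ETH was -0.21 (adjusted p = 0.00244). miR-101a passed in MPy (-0.20, adjusted p = 0.0101, limma) and Wy (-0.19, adjusted p = 0.0198), and in TAA it was -0.11 (adjusted p = 0.25). miR-101b in Wy was -0.43 (adjusted p = 0.00851, limma). Thus miR-26a was lower in ETH, miR-26b in ETH, miR-101a in MPy and Wy, and miR-101b in Wy against either set of controls.

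Scan day moved with some of these comparisons. Wy, TAA and DES were scanned on day 1, and their control sets on days 2 and 3, so no within-day value against their own controls exists. With scan day as a block, miR-101b in Wy was -0.26 and miR-101a in Wy was -0.14 (adjusted p = 0.159 for both, limma). miR-26a in DES was -0.18 (adjusted p = 0.311, limma), miR-101b in DES -0.23 (adjusted p = 0.343) and miR-101a in TAA -0.06 (adjusted p = 0.68). Against MC set 6, the MC rats scanned on day 1, Wy gave -0.34 for miR-101b (adjusted p = 0.0186, limma) and -0.22 for miR-101a (adjusted p = 0.00298), and DES gave -0.25 for miR-26a (adjusted p = 0.0203). On that reference miR-101b in DES was -0.24 (adjusted p = 0.148, limma) and miR-101a in TAA was -0.13 (adjusted p = 0.0698). DMN and ETH were read on the same day as their controls. MPy shared day 2 with 2 of its 3 controls, and gave -0.24 for miR-101a against these. With slide as a fixed block, miR-26a in CIDB (-0.38) and miR-101a in MPy (-0.38, adjusted p = 0.0253, limma) kept their calls, and the other 8 of the 10 did not. Under that block 7 of 60 member values (6 lower) and 3.37% of all tested miRNAs were called, against 14.3% as reported. The CIDB value is that of the 1 CIDB rat on the slide of its controls. MPy, DMN, ETH, DES, Wy and TAA shared no slide with their controls. Their values with this block rest on slide levels estimated through other groups. The fold change of miR-26a in DMN (-0.31) stayed close to that reported, with an SE of 0.13 in place of 0.07, and those of miR-101a in Wy (-0.35), miR-101b in Wy (-0.57) and miR-101a in TAA (-0.26) were further from 0. Nearer to 0 were miR-26a in DES (-0.05) and ETH (-0.10) and miR-26b in ETH (-0.08). The CIDB call of miR-26a was in turn lost on processed signal, at -0.15 scaled over detected miRNAs (adjusted p = 0.115, limma; -0.46 relative to the median of all tested miRNAs) and -0.31 over all probes (adjusted p = 0.199), and with only the groups compared (-0.35, adjusted p = 0.054).

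**Figure D4:**
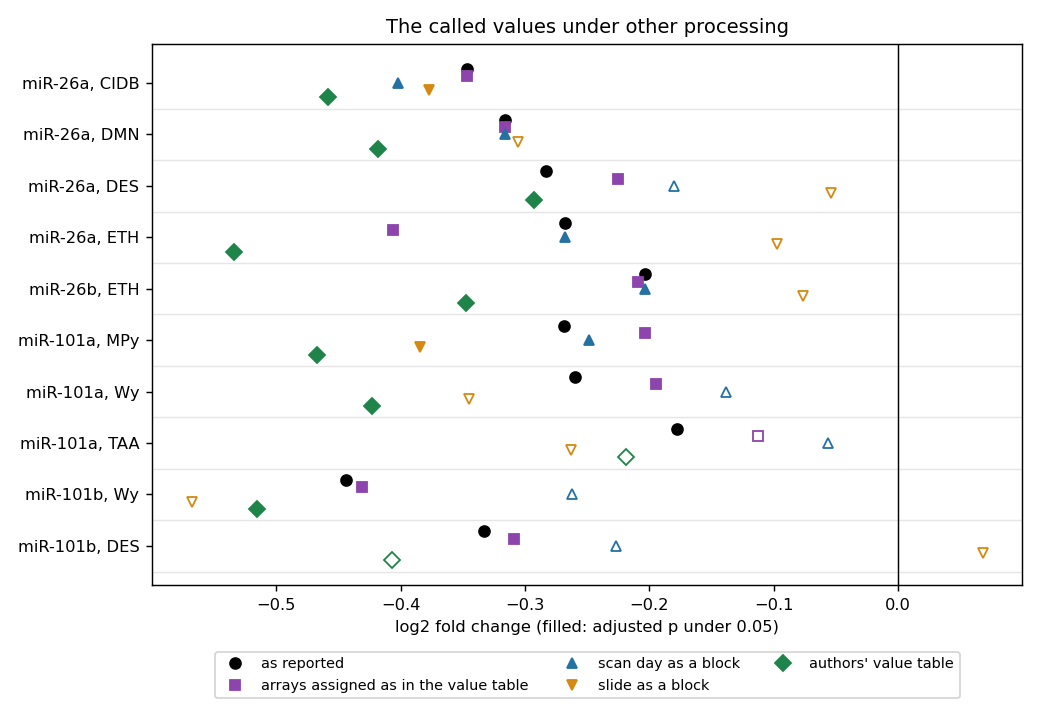
Log2 fold change (x axis) of the 10 called values (y axis) as reported and under 4 other ways of processing; filled symbols passed an adjusted p of 0.05. miR-26a in CIDB is filled under these 5, whereas miR-101a in TAA is filled in 1, and miR-101b in DES turns positive (0.07) with slide as a block.

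Vehicle rats show how far a control set alone moves a value. Among MC sets 1, 2, 5 and 6 and between the 2 CO sets, 0 members were called, although MC set 6 differed from sets 1, 2 and 5 in 20.4%, 6.79% and 9.26% of all tested miRNAs. The other comparisons between sets of a vehicle had 0% called. The largest of these differences was -0.18 for miR-26a, between MC set 6 and set 2 (adjusted p = 0.124, unadjusted p = 0.0224, limma). CO rats were lower than MC rats in miR-26a by 0.14 (SE 0.05, adjusted p = 0.012, limma), 1 of 4 members called in a comparison in which 34% of all tested miRNAs were. All CO rats were scanned on day 1, and with scan day as a block the count of members called was 0. CIDB, DMN and CPA were compared with CO rats and were not set against this MC level.

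Compound classes were compared with the compound as the unit: 8 nongenotoxic carcinogens (PB, PBO, DHEA, AA, MPy, Mcarb, DES and ETH), 2 genotoxic carcinogens (CIDB and DMN) and 2 non-carcinogens (CFX and Nif). None of 12 tests passed an adjusted p of 0.05 (limma). The smallest p was for miR-26a, with a mean log2 fold change of -0.12 ± 0.13 (SD, n = 8) in nongenotoxic and -0.33 in genotoxic carcinogens (exact permutation p = 0.0444, two-sided; adjusted p = 0.417, limma). CIDB and DMN share their 3 controls, and with arrays assigned as in the value table the exact p was 0.244. In the non-carcinogens the mean for miR-26a was -0.11, and 0.03 with arrays assigned as in the value table.

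As a description of pattern, the 2 miR-101 members had r = 0.76 over the 21 group means, and the 2 miR-26 members r = 0.44. Between families r ran from -0.04 to 0.21. Of 67 other miRNAs detected on all arrays, those closest to the mean of miR-26a and miR-26b were miR-30a (r = 0.82), miR-194 (r = 0.77) and miR-30e (r = 0.70). Closest to the mean of the miR-101 members were miR-140* (r = 0.74), miR-30a* (r = 0.61) and miR-125b-5p (r = 0.57). The group means share control sets, slides and one normalisation. miR-30a, a hepatocyte miRNA, had its lowest log2 fold changes in ETH (-0.24) and DES (-0.19), where miR-26a was also lower, but -0.07 in CIDB, where miR-26a was lowest.

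Other miRNAs described as liver tumour suppressors did not move in one direction with the members. Of 18 tested (let-7, miR-29, miR-125, miR-34a and others), 4 rose and 1 fell in CIDB, 1 rose and 4 fell in DMN, 8 rose and 1 fell in DES and 1 rose and 0 fell in ETH. In MPy 5 rose and 2 fell, in TAA 2 rose and 2 fell, and in Wy 3 rose and 2 fell. Their median log2 fold changes in these compounds ran from -0.08 in DMN to 0.12 in DES, beside medians of all tested miRNAs within 0.01 of 0. Of all tested miRNAs, 20.4% were called in CIDB, 23.5% in DMN, 37% in DES and 16% in ETH. The shares were 18.5% in MPy, 21.6% in TAA and 25.9% in Wy. The lists overlap, and miR-122 is counted both here and among the hepatocyte miRNAs below. miR-34a, a target of p53, rose by 3.44 in CIDB, 1.96 in DMN, 1.96 in TAA, 1.89 in ETH and 1.12 in MPy, while its values in DES and Wy were 0.13 and 0.09 and did not pass. miR-26a was called in CIDB, DMN and ETH of these and not in TAA or MPy. Of 13 miRNAs described as growth promoting in liver, 4 rose and 1 fell in CIDB, 5 rose and 0 fell in DMN and 7 rose and 1 fell in DES. ETH had 2 up and 1 down, MPy 4 and 1, TAA 3 and 2, and Wy 4 and 1. miR-21 rose by 0.70 in CIDB and 0.30 in DMN, and fell by 0.22 in DES.

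Markers of cell types moved with some of the called values. Their counts stand beside the shares of all tested miRNAs given in the paragraph above. In CIDB, miR-122 fell by 0.33 and miR-192 by 0.50, 2 of the 6 hepatocyte miRNAs tested, beside the miR-26a fall of 0.35. The summed normalised brightness of the 6 was 23141 to 27521 units in CIDB rats and 30000 to 32222 in their controls. miR-122, the brightest of all tested miRNAs by mean level, weighs most in the hepatocyte sums here and below. Leukocyte miR-223 fell by 0.15 in CIDB, with sums of 1141 to 1174 for its list against 1193 to 1286. In DMN, miR-122 fell by 0.09, 1 of the 6, with sums of 28285 to 30974. Of 5 leukocyte miRNAs 4 rose in DMN, led by miR-142-3p at 0.76 and miR-146a at 0.49, with sums of 1494 to 1899 against 1193 to 1286, and 3 of 4 stellate and smooth muscle miRNAs fell, led by miR-143 at -0.33. In ETH, 3 hepatocyte miRNAs fell (miR-192 by 0.66, miR-194 by 0.55 and miR-30a by 0.24), with sums of 31570 to 31944 against 32002 to 32959, and 3 leukocyte miRNAs rose, with sums of 1461 to 1502 against 1291 to 1316. The stellate miRNA miR-143 rose there by 0.19, with sums of the list of 1065 to 1163 against 974 to 1043. In DES 2 leukocyte miRNAs fell, with sums of 1119 to 1205 against 1291 to 1316. There 2 hepatocyte miRNAs fell while 1 rose, with sums of 30695 to 31762 against 32002 to 32959. The part of these shifts in the values of miR-26a was not tested. For the miR-101 calls in Wy and TAA, 0 of 6 hepatocyte and 0 of 5 leukocyte miRNAs were called and miR-143 alone of the stellate list fell (-0.22 and -0.19). In MPy miR-194 alone of the hepatocyte list was called (-0.32), with sums of the list of 31556 to 31665 against 32382 to 32829. Leukocyte sums in MPy were 1349 to 1433 against 1294 to 1318, with 0 of 5 called. Of the 2 erythroid miRNAs 0 were called in these 7 compounds. Of the 2 endothelial miRNAs miR-126 fell in DMN (-0.18) and miR-126* in DES (-0.09). miR-148a, miR-155 and miR-486 were not tested here, and miR-145 was detected on 0 arrays.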

How the data were processed

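Per the file headers, the deposited scanner files hold spot intensities read by Agilent Feature Extraction 10.7.3.1, as mean brightness without normalisation, and a processed signal with background subtracted. The authors' value table holds normalised log2 values of 135 miRNAs, which the methods describe as RMA without background correction. Here mean brightness was quantile normalised without control spots and outlier-flagged spots (2.87%), averaged per probe, log2 transformed and median polished over the 2 probes of each member. Groups and control sets follow the labels. Fold changes were tested with limma 3.58.1 (R 4.3.3) over 63 arrays in 21 groups, Benjamini-Hochberg adjusted over 162 miRNAs per comparison, and classes with limma on compound means plus two-sided exact permutation. The number of arrays limits precision. Steps were tested on simulated data.

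The members and lists were chosen with earlier results of these data known. Named miRNAs are the members, their opposite arms, miR-122, the 3 closest by r per family, and up to 3 called per list by size of change. Alternatives were the value table, processed signal scaled by the 75th percentile, normexp (offset 50), other detection filters, all control rats of a vehicle, blocks for slide or scan day, only the groups compared, arrays assigned as in the value table, a replicate block and leaving out each rat. MC set 6 as reference was chosen after seeing the data. Replicate numbers shared by PB and CPA with their controls did not pair the rats (r from -0.26 to 0.05).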

Additional observations from a re-analysis of the deposited data

How the results depend on the processing

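With 3 rats per group small changes are below detection, and signal over background limits miR-101a most. As reported, miR-26a was called in 4 compounds, miR-26b in 1, miR-101a in 3 and miR-101b in 2. With slide as a fixed block the counts moved to 2 for miR-26a and 0 for miR-26b (7 of 60 values, 6 lower, where 3.37% of all tested miRNAs were called). With scan day as a block they moved to 1 for miR-101a and 0 for miR-101b (5 of 60 values, where 11.4% of all tested miRNAs were called). With all control rats of a vehicle they rose to 7, 3, 6 and 4, in the order given (20 of 60 values, where 18.4% of all tested miRNAs were called). Of these 20, 19 were lower, and the other was the rise of miR-101b in CIDB. The assignment as in the value table together with a slide block gave 2 for miR-26a, 0 for miR-101a and 1 for miR-101b. That miR-101b call was the rise in CIDB (0.34). In this setting 3.87% of all tested miRNAs were called. Using only the groups compared gave 1 for miR-26a (6 of 60 values, where 6.87% of all tested miRNAs were called). The authors' own values gave 2 for miR-26b. Processed signal scaled over all probes gave 2 for miR-26b and 4 for miR-101b, with the CIDB rise among the 4. Leaving out 1 rat gave 3 to 5, 1 to 2, 2 to 4 and 1 to 3, with the rises of miR-26b in AA and of both miR-101 members in CIDB among these calls. Of 12 values in DES, TAA and Wy 5 were called, and 3 against MC set 6, where 24.5% of all tested miRNAs were called. Called differences between miR-26a and miR-26b went from 3 compounds to 0 with slide as a fixed block, under either assignment of arrays. Those between miR-101a and miR-101b went from 2 to 1 with the authors' values, both scalings of processed signal, normexp and slide as a random block. They went to 0 with scan day as a block. With the authors' values the 1 call was another compound, DHEA (0.39). With slide as a fixed block the called differences were in CIDB (-0.30) and DMN (-0.48) in place of DES and Wy, with ETH (-0.17) added under the other assignment. Members called between control sets went from 1 to 0 with scan day as a block, slide as a random block or scaling over all probes, and to 2 with slide as a fixed block under either assignment or scaling over detected miRNAs. Class comparisons had 0 calls under all alternatives run.

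Scaling the processed signal over detected miRNAs moved the median of all tested miRNAs by -0.18 to 0.39 across compounds, and over all probes by -0.25 to 0.25. On the former, miR-26b in CIDB was 0.29 and miR-101a in TAA 0.0215, or -0.02 and -0.23 relative to the median. Signs also turned for miR-101b in DES with slide as a fixed block (0.0682), for miR-101a in TAA with the other assignment plus slide (0.0207), and for miR-26a minus miR-26b in DHEA (0.01 as reported) with the authors' values (-0.47) and the other assignment (-0.28). The cause was not tested. With the replicate block, 0 members were called in PB and CPA, as without it, and the shared numbers do not pair the rats. Of 1160 single values under an alternative, 955 kept their direction and their side of the threshold.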
